A study of Mus musculus with 2 samples.

Results

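The genes described here are 10 macrophage genes, chosen by name from the 24542 gene symbols of the deposited table, in remote heart muscle after infarction. They are Timd4, Folr2, Cd163, Mrc1 and Lyve1, which are known from resident macrophages, Ms4a7, Trem2 and Gpnmb, which are known from recruited or lipid-laden macrophages, and Cd68 and Csf1r, which most macrophages carry. Male NRK-2 KO mice were compared with male littermate controls, all C57BL/6, and NRK-2 is the muscle enzyme encoded by Nmrk2 that phosphorylates nicotinamide riboside for NAD synthesis. Both groups had permanent ligation of the proximal LAD coronary artery, and remote left ventricle, without scar and border area, was taken at 7 days. Each genotype has 3 numbered libraries in the table, called here KO 1 to 3 and control 1 to 3, although the labels list 1 sample per genotype. The labels used here state neither whether libraries are separate animals, nor how the gene was deleted, nor the age of the mice.

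Resident macrophages of the heart are seeded early in life and maintained largely by local division under signals through CSF1R. They clear dying cells and debris with receptors such as TIMD4, CD163 and the mannose receptor. After infarction, monocytes carrying CCR2 enter the muscle and become macrophages, some of which take on a lipid-handling programme that is marked in several tissues by Trem2 and Gpnmb. In mice, recruited cells can acquire some resident genes with time, so these names describe where a gene is usually found and not the history of a cell.

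Some libraries stood apart from their labels or from their group, and the members' results are given with and without KO 1, KO 2 and control 3. The targeted gene Nmrk2 had 808, 9 and 0 reads in the libraries labelled KO 1, KO 2 and KO 3, against 308, 270 and 118 reads in control 1, 2 and 3, so KO 1 went against its label. Every direction given for the knockout therefore rests in part on a library that held more Nmrk2 reads than any control. Library totals were 26975513 to 33086384 reads in the libraries labelled KO and 22377348 to 22831189 in control. Control 3 stood apart from the other controls by its immune and serosal transcripts, with summed B and plasma cell markers at 814.8 CPM (reads scaled to library size with TMM factors) against 11.7 and 10.7 CPM in control 1 and 2. The library labelled KO 2 held lung epithelial transcripts, at a summed 405 CPM, against 0 and 15.2 CPM in KO 1 and KO 3 and at most 0.867 CPM in control. The atrial light chain Myl4 was at 315.6, 6.24 and 2.52 CPM in KO 1, 2 and 3, against 204.3, 176 and 2.31 CPM in control 1, 2 and 3. Cardiomyocyte markers showed that all 6 libraries were heart muscle, with Myh6 at 6409 CPM or more in each.

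Of the 10 genes, all were measured in enough reads to be tested, and 1 rose while 0 fell by edgeR's quasi-likelihood test at an adjusted p under 0.05. Over all 14466 genes tested, 2.61% rose and 1.09% fell. At an unadjusted p under 0.05 of the same test, 2 of the 10 were higher and 3 lower, against 12.3% and 13.5% of all genes. DESeq2 called 1 riser and 3 fallers (7.18% and 8.33% of the genes it tested), and limma on log2(FPKM + 1) called 1 and 0 (3.66% and 2.32%). The 3 resident genes that DESeq2 called were Folr2, Cd163 and Lyve1. In a bulk sample, fewer cells of a type and less RNA per cell cannot be told apart.

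The sequences before the start sites of 4 of these genes are shown, for Ms4a7 and Trem2, which were higher in every library labelled KO, and for Folr2 and Timd4, which were low there relative to Csf1r. The other resident genes were low there by the same measure and are not shown. Each is the 250 bases upstream of the annotated start of the gene's most-read transcript, from RefSeq (GRCm38.p6), and 8 of 9 genes looked up had an entry that matched the table's start. Capitals mark GAGGAA, a core of the sites of PU.1, the factor that specifies macrophages, and TGCTGA, a core of the sites of the MAF factors of resident macrophages, each read on either strand. GAGGAA occurs in 23.3% and TGCTGA in 16.1% of 32851 windows of the same length, and the motifs do not overlap in these windows.
Ms4a7, chr19:11336147-11336396, minus strand: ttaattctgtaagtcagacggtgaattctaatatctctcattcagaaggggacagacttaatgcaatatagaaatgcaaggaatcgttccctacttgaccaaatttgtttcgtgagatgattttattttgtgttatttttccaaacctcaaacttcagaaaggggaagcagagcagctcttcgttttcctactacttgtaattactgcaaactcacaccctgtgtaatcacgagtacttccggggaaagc
Trem2, chr17:48346151-48346400, plus strand: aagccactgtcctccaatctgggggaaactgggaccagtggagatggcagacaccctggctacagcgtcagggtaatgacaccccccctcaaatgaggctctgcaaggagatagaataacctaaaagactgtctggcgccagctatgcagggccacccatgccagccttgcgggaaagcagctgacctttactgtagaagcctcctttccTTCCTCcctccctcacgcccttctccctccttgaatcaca
Folr2, chr7:101845332-101845581, minus strand: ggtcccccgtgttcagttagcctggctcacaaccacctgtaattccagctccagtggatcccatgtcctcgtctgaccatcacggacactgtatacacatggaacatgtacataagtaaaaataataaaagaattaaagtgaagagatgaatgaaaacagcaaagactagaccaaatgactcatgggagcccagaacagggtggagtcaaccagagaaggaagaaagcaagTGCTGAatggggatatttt
Timd4, chr11:46810549-46810798, plus strand: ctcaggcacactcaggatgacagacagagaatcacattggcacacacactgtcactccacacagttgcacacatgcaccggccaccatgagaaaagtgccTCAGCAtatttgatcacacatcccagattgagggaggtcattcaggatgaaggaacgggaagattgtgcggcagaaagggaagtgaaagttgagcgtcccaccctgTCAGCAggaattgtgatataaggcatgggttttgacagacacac
The Trem2 window held 1 GAGGAA, on the opposite strand and beginning 40 bases before the start. The Folr2 window held 1 TGCTGA, beginning 19 bases before the start, and the Timd4 window held 2, on the opposite strand and beginning 150 and 44 bases before it. Of the matched resident genes not shown, the Mrc1 window held 3 GAGGAA and 0 TGCTGA, and the Cd163 window held neither, so TGCTGA was in 2 of 4 resident windows. The 2 resident windows shown are the 2 that held it. Neither string was found in the Ms4a7 window, which says only that these letters are not in it. The matches are a description of sequence and were not tested for binding.

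**Figure D1:**
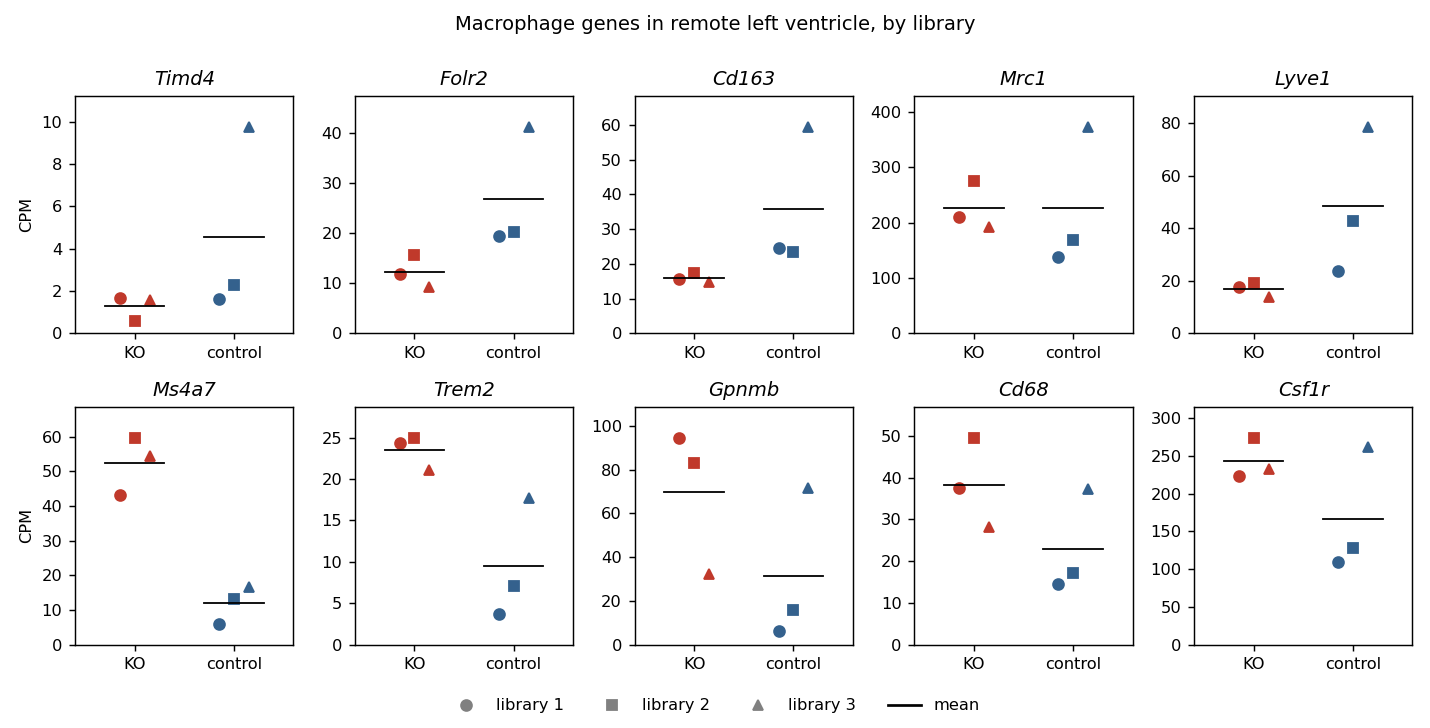
CPM of the 10 macrophage genes (vertical axis, linear from 0, own scale per gene) in the 3 libraries labelled KO (red) and the 3 control libraries (blue), with library numbers as marker shapes and group means as bars. Ms4a7 and Trem2 lie higher in every library labelled KO, Folr2, Cd163 and Lyve1 lie lower there, and control 3 (blue triangle) is the highest control for each gene.

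Ms4a7 (chr19:11321039-11336146), which encodes a membrane protein of the tetraspan MS4A family found on macrophages, rose 4.39-fold in the libraries labelled KO. Positions are those of the table (mm10), over the most-read transcript. It was at 43.1, 59.7 and 54.3 CPM in KO 1, 2 and 3, against 5.98, 13.2 and 16.5 CPM in control 1, 2 and 3. The groups did not overlap, and the lowest library labelled KO lay well above the highest control. The means were 52.4 ± 8.49 CPM in the libraries labelled KO and 11.9 ± 5.39 CPM in control (SD, n = 3 each), and edgeR's test gave a log2 fold change of 2.13 with an SE of 0.36 (adjusted p = 0.0336). All libraries labelled KO lay above all controls for 16.4% of genes tested. The most-read transcript held 85.8%, 90.2% and 86.0% of the Ms4a7 reads in KO 1, 2 and 3, against 69.7%, 88% and 80.8% in control 1, 2 and 3. The groups overlapped in that share, and the table's split of reads between transcripts is less certain than the gene's sum. Without KO 1 the log2 fold change was 2.26 and the call was lost (edgeR, adjusted p = 0.0951). It was lost as well without KO 2, KO 3 or control 2 (adjusted p = 0.117, 0.0974 and 0.147) and kept without control 1 or control 3 (0.0425 and 0.0169). With the most-read transcript in place of the gene's sum, the log2 fold change was 2.24 and did not pass (edgeR, adjusted p = 0.0761).

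Trem2 (chr17:48346401-48352276), a lipid-sensing receptor that signals through the adaptor TYROBP, was at 24.4, 25.0 and 21.1 CPM in KO 1, 2 and 3, against 3.73, 7.03 and 17.6 CPM in control 1, 2 and 3. The libraries labelled KO lay close together and all above control, of which control 3 came nearest. Its log2 fold change was 1.31 (SE 0.51) and did not pass (edgeR, adjusted p = 0.167). It was 1.28 without KO 1 (adjusted p = 0.312) and 2.13 without control 3, where it passed (adjusted p = 0.0162).

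Gpnmb (chr6:49036518-49058182), a transmembrane glycoprotein of lysosome-rich macrophages, was at 94.6, 82.9 and 32.4 CPM in KO 1, 2 and 3, against 6.13, 15.9 and 71.7 CPM in control 1, 2 and 3. The groups overlapped, because KO 3 lay below control 3. Its log2 fold change of 1.16 (SE 0.85) did not pass (edgeR, adjusted p = 0.43), and the gene spread widely within each genotype. Without control 3 it was 2.66 and passed (adjusted p = 0.0259), and without KO 1 it was 0.88 (adjusted p = 0.665).

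The pan-macrophage members did not separate the genotypes. Csf1r (chr18:61105572-61131139), the receptor for CSF1 and IL-34 on which most macrophages depend, was at 224.1, 274.2 and 232.2 CPM in KO 1, 2 and 3, against 109.8, 127.5 and 262.1 CPM in control 1, 2 and 3. Its level in control 3 was within the range of the libraries labelled KO, and the log2 fold change of 0.55 (SE 0.33) did not pass (edgeR, adjusted p = 0.335). Cd68 (chr11:69664213-69666170), a glycoprotein of macrophage lysosomes, was at 37.4, 49.5 and 28.1 CPM in KO 1, 2 and 3, against 14.4, 17.1 and 37.3 CPM in control 1, 2 and 3 (log2 fold change 0.74, SE 0.39, edgeR adjusted p = 0.282). Both rose in the fit without control 3, with log2 fold changes of 1.04 and 1.29 for Csf1r and Cd68 (edgeR, adjusted p = 0.0165 and 0.0206). Without KO 1 they were 0.60 and 0.76 and did not pass (adjusted p = 0.445 and 0.422).

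Of the 5 resident genes, 0 rose and 0 fell by edgeR, although 3 were lower in every library labelled KO than in any control and each had a fitted log2 fold change below 0. At an unadjusted p under 0.05 of edgeR's test 3 were lower and 0 higher, and limma called 0. The median log2 fold change of the 5 was -1.17, against 0.011 over all genes tested. All libraries labelled KO lay below all controls for 14.5% of genes tested.

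Folr2 (chr7:101839988-101845331), a folate receptor anchored in the membrane, was at 11.8, 15.8 and 9.35 CPM in KO 1, 2 and 3, against 19.4, 20.2 and 41.4 CPM in control 1, 2 and 3. The groups did not overlap, and control 1 and 2 lay close together. Folr2 had a log2 fold change of -1.13 (SE 0.35, edgeR adjusted p = 0.104), -1.10 without KO 1 (0.238) and -0.68 without control 3 (0.0758). DESeq2 gave -1.15 and called it (adjusted p = 0.0167).

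Cd163 (chr6:124304651-124330527), the scavenger receptor for complexes of haemoglobin and haptoglobin, was at 15.7, 17.4 and 14.7 CPM in KO 1, 2 and 3, against 24.7, 23.5 and 59.6 CPM in control 1, 2 and 3. Its libraries labelled KO lay within a narrow range below all controls. Cd163 had a log2 fold change of -1.17 (SE 0.37, edgeR adjusted p = 0.108), -1.16 without KO 1 (0.242) and -0.60 without control 3, where it passed (0.0271). DESeq2 called it over all 6 libraries (log2 fold change -1.19, adjusted p = 0.0166).

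Lyve1 (chr7:110850607-110862953), a hyaluronan receptor, was at 17.6, 19.0 and 13.8 CPM in KO 1, 2 and 3, against 23.7, 42.7 and 78.7 CPM in control 1, 2 and 3. The groups did not overlap, but the controls spread widely. The log2 fold change was -1.52 (SE 0.41, edgeR adjusted p = 0.0861), -1.56 without KO 1 (0.191) and -0.98 without control 3, where it passed (0.0427). DESeq2 gave -1.54 and called it (adjusted p = 0.00277). Lyve1 also marks lymphatic endothelium, whose 8 listed markers summed to 198.8 to 212.4 CPM in the libraries labelled KO and 197.3 to 246.3 CPM in control. Of that list 1 gene (Sema3d, a semaphorin) rose and 0 fell of 7 tested by edgeR (1 and 3 at an unadjusted p under 0.05, 1 and 1 by DESeq2, 1 and 0 by limma). Over all genes tested, 2.61% rose and 1.09% fell by edgeR, and 12.3% were higher and 13.5% lower at that unadjusted p. Sema3d passed in the fit without control 3 and was lost in the other 5 fits that left out a library (adjusted p = 0.109 without KO 1, edgeR). Prox1, a transcription factor listed here for lymphatic endothelium, was lower in every library labelled KO (log2 fold change -0.94, edgeR adjusted p = 0.0905). It was at 37.8, 27.6 and 41.2 CPM in KO 1, 2 and 3, against 79.7, 79.2 and 45.1 CPM in control 1, 2 and 3. Summed cardiomyocyte markers ranked the libraries in the same order, at 33210, 19850 and 34010 CPM in KO 1, 2 and 3. In control 1, 2 and 3 that sum was 64410, 60680 and 38420 CPM. The part of other cells in the Prox1 values was not tested. The secreted protein gene Reln was also lower in every library labelled KO, at 13.9 to 16.5 CPM, against 17.8 to 27.6 CPM in control. The lymphatic receptor Flt4 was at 47.3 to 56.5 CPM in the libraries labelled KO and 32.7 to 47.9 CPM in control, and the lymphatic chemokine Ccl21a at 1.5 CPM or less in every library. The lymphatic glycoprotein Mmrn1 was lower in every library labelled KO (15.7 to 22.03 CPM, against 23.2 to 48.5 CPM in control), and the part of lymphatic cells in the Lyve1 difference was not tested.

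Timd4 (chr11:46810799-46844333), a receptor by which resident macrophages bind phosphatidylserine on dying cells, was the least abundant member. It had 48, 21 and 43 reads in KO 1, 2 and 3 (1.66, 0.588 and 1.57 CPM), against 33, 47 and 241 reads in control 1, 2 and 3 (1.62, 2.26 and 9.78 CPM). The groups overlapped, since KO 1 lay above control 1, and control 3 held most of the control reads. The 21 reads of KO 2 have an exact 95% Poisson interval of 13 to 32.1 reads, which covers counting error only. The log2 fold change of -1.84 (SE 0.79) did not pass (edgeR, adjusted p = 0.198) and became -0.61 without control 3 (0.476) and -2.08 without KO 1 (0.31).

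Mrc1 (chr2:14229414-14332023), the mannose receptor CD206, was the exception among the resident genes. It was at 210.5, 275.5 and 192.4 CPM in KO 1, 2 and 3, against 138, 168.2 and 373.4 CPM in control 1, 2 and 3, so that control 3 was the highest library and the other controls the lowest. The log2 fold change was -0.0028 (SE 0.38, edgeR adjusted p = 0.998), and its sign depended on scaling, filter and the library left out, with 0.051 for library totals without TMM, 0.046 without KO 1 and 0.56 without control 3 (adjusted p = 0.0759).

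**Figure D2:**
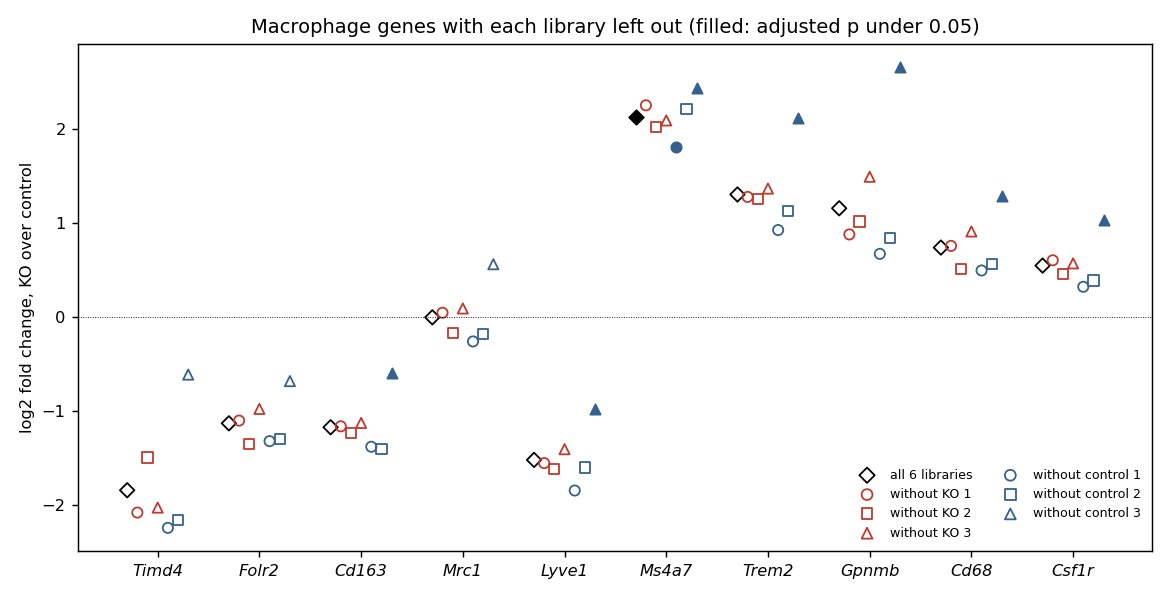
Fitted log2 fold change of KO over control (vertical axis) for each member in edgeR fits with all 6 libraries (black) and with each library labelled KO (red) or control library (blue) left out, filled where the adjusted p was under 0.05. Ms4a7 stays between 1.82 and 2.44, the fit without control 3 (blue triangles) lies highest for each of the 10 genes, and Mrc1 falls on either side of 0.

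Control 3 was the highest control for each of the 10 members. The 22 pan-macrophage companion genes summed to 2775 to 4489 CPM in the libraries labelled KO and to 998.8, 1575 and 3459 CPM in control 1, 2 and 3. Control 3 lay within the range of the libraries labelled KO in that sum, and the other controls lay below it. With control 3 left out, 5 members rose (Ms4a7, Trem2, Gpnmb, Cd68 and Csf1r) and 2 fell (Cd163 and Lyve1), against 11.6% and 12.9% of all genes in that fit. Without KO 1, 0 members passed in either direction (0.529% and 0.0679% of all genes). Without KO 2, the library with lung transcripts, 0 members passed as well. The edgeR log2 fold changes were then -1.50 for Timd4, -1.35 for Folr2, -1.24 for Cd163, -1.62 for Lyve1 and -0.17 for Mrc1. Those of Ms4a7, Trem2, Gpnmb, Cd68 and Csf1r were 2.03, 1.26, 1.02, 0.51 and 0.46 without KO 2.

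Each member was also set against Csf1r within its own library, and the controls then lay close together for Folr2, Cd163, Mrc1 and Cd68. The measure is reads of the gene per 1000 Csf1r reads of the same library, which does not depend on library size, and it was tested on log2 ratios of CPM + 0.5 with an exact two-sided permutation test, whose smallest p with 3 against 3 libraries is 0.1. For Folr2 it was 52.7, 57.5 and 40.2 in KO 1, 2 and 3, against 176.4, 158.4 and 157.9 in control 1, 2 and 3. Control 3, which had the most Folr2 reads, was here close to control 2. The means were 50.1 ± 8.89 in the libraries labelled KO and 164.2 ± 10.6 in control (SD, n = 3 each), a log2 difference of -1.69 (exact p = 0.1).

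Cd163 gave 70.1, 63.3 and 63.4 reads per 1000 Csf1r reads in KO 1, 2 and 3, against 225.1, 184.1 and 227.2 in control 1, 2 and 3, a log2 difference of -1.67 (exact permutation p = 0.1). Lyve1 gave 78.7, 69.4 and 59.6 in KO 1, 2 and 3, against 215.7, 334.8 and 300.2 in control 1, 2 and 3, a log2 difference of -1.99 (exact permutation p = 0.1). In both genes the libraries labelled KO lay far below all controls. Timd4 gave 7.4, 2.14 and 6.76 in KO 1, 2 and 3, against 14.7, 17.8 and 37.3 in control 1, 2 and 3 (log2 difference -1.86, exact permutation p = 0.1). Mrc1 gave 939.1, 1005 and 828.3 in KO 1, 2 and 3, against 1256, 1320 and 1425 in control 1, 2 and 3, with a smaller log2 difference of -0.53 (exact permutation p = 0.1). Relative to Csf1r, the resident genes were thus lower in every library labelled KO than in any control, 5 of 5. That held for 14.2% of all genes tested, whose median log2 difference was -0.63, and Csf1r itself had the fitted log2 fold change of 0.55 given above.

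The ratios of the recruited genes ran the other way. Ms4a7 gave 192.1, 217.8 and 234 reads per 1000 Csf1r reads in KO 1, 2 and 3, against 54.5, 103.9 and 63 in control 1, 2 and 3 (log2 difference 1.54, exact permutation p = 0.1). Trem2 gave 108.8, 91.1 and 91.0 in KO 1, 2 and 3, against 33.9, 55.2 and 67.3 in control 1, 2 and 3 (log2 difference 0.87, exact permutation p = 0.1). Both were higher in every library labelled KO than in any control, as were 2.03% of all genes. Gpnmb overlapped between the genotypes, at 139.5 to 422 in the libraries labelled KO and 55.8 to 273.7 in control (log2 difference 1.03, exact permutation p = 0.2). Cd68 kept nearly the same ratio, at 120.9 to 180.6 in the libraries labelled KO and 131.3 to 142.3 in control (log2 difference 0.17, exact permutation p = 0.4).

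The differences of Folr2, Cd163, Lyve1 and Ms4a7 changed little when KO 1, KO 2 or control 3 was left out. Without KO 1 the log2 differences were -1.74 for Folr2, -1.71 for Cd163, -2.09 for Lyve1 and 1.61 for Ms4a7. Without KO 2 they were -1.79, -1.64, -2.00 and 1.53 for the same genes, and without control 3 they were -1.73, -1.62, -1.94 and 1.44. For the other libraries left out, they were -1.55, -1.64, -1.89 and 1.47 without KO 3. They were -1.64, -1.62, -2.17 and 1.37 without control 1, and -1.72, -1.76, -1.86 and 1.805 without control 2. Timd4 moved more, to -2.09 without KO 1, -1.45 without KO 2 and -1.55 without control 3. Gpnmb was at 0.69 without KO 1, 0.93 without KO 2 and 1.58 without control 3. Trem2 was at 0.79, 0.92 and 1.05 in the same order, Mrc1 at -0.54, -0.59 and -0.48, and Cd68 at 0.11, 0.053 and 0.19. Leaving out control 1 gave 0.63 for Trem2 and 0.48 for Gpnmb. An edgeR fit over all genes in which each library was scaled to its Csf1r reads, chosen after the data had been seen, called Folr2, Cd163 and Lyve1 lower and Ms4a7 higher (adjusted p = 0.0261, 0.0263, 0.0118 and 0.0411), against 3.99% of genes lower and 0.408% higher. Timd4 missed in that fit (adjusted p = 0.0558). The 4 calls were lost without KO 1, KO 2, KO 3 or control 2, with 0 members past the test in each of those fits. Without control 1, 4 members passed (Folr2, Cd163, Lyve1 and Timd4), and without control 3, 7 passed. The share of all genes called in these fits was not recorded, so the counts of members cannot be set against it. In the unscaled edgeR fit without control 3, 11.6% of all genes rose and 12.9% fell.

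**Figure D3:**
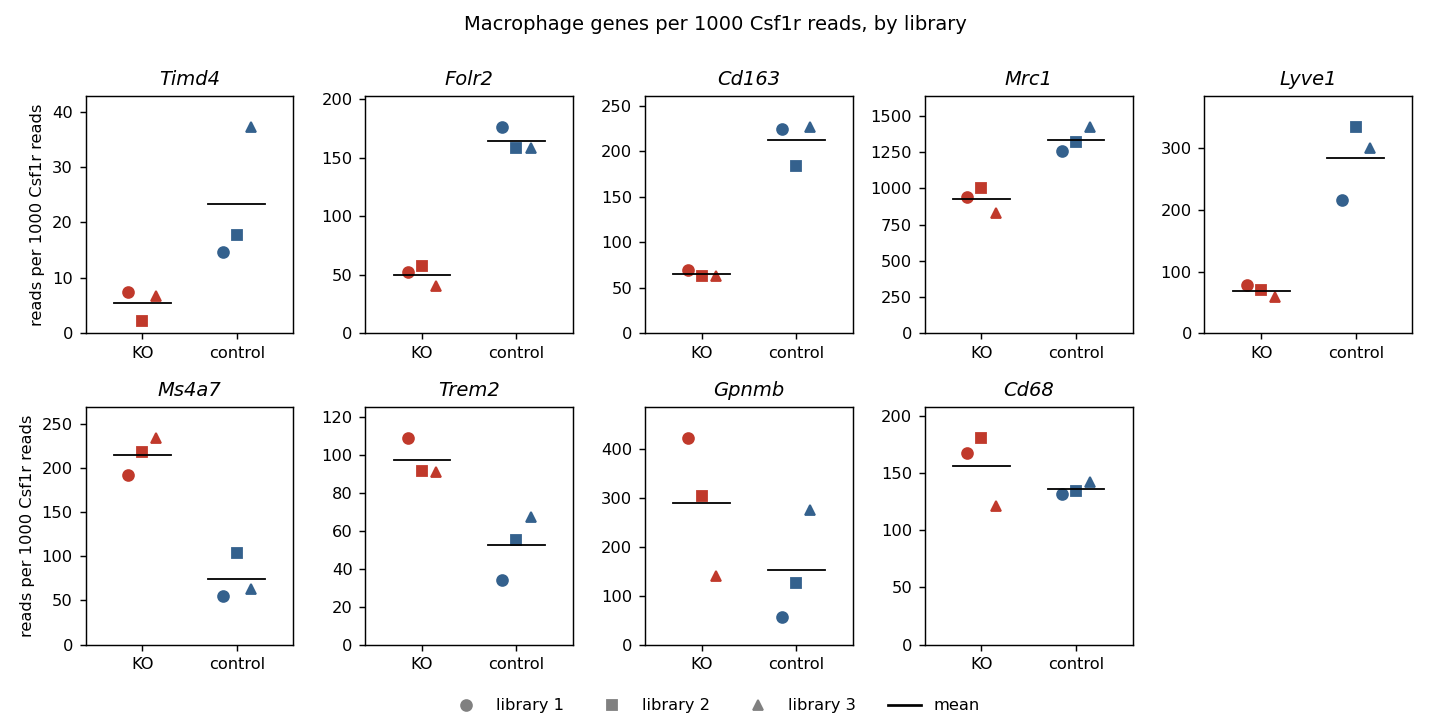
Reads of each member per 1000 Csf1r reads of the same library (vertical axis, linear from 0, own scale per gene) in the libraries labelled KO (red) and control (blue), with library numbers as marker shapes and means as bars. The 5 resident genes lie lower in all 3 libraries labelled KO, Ms4a7 and Trem2 lie higher there, and Gpnmb and Cd68 overlap.

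Per length of transcript, Ms4a7 and Folr2 changed places. The FPKM of Ms4a7 over that of Folr2 was 2.94, 3.06 and 4.71 in KO 1, 2 and 3, against 0.242, 0.53 and 0.318 in control 1, 2 and 3. In FPKM the order of group means in the libraries labelled KO was Csf1r (64.2 ± 9.37), Mrc1, Ms4a7 (39.9 ± 7.62), Cd68, Trem2 (21.8 ± 2.52), Gpnmb, Folr2 (11.6 ± 3.49), Lyve1 (6.59 ± 1.23), Cd163 (3.65 ± 0.438) and Timd4 (0.582 ± 0.261) (SD, n = 3). Neighbours from Mrc1 to Folr2 overlapped in that order, whereas Csf1r lay above Mrc1, and Folr2, Lyve1, Cd163 and Timd4 followed each other without overlap. In control the order of mean FPKM was Csf1r (42.2 ± 25.5), Mrc1 (42.0 ± 28.1), Folr2 (24.4 ± 13.9), Cd68, Lyve1 (18.3 ± 12.3), Ms4a7 (8.55 ± 4.51), Trem2, Gpnmb, Cd163 (7.99 ± 5.38) and Timd4 (2.11 ± 2.29) (SD, n = 3). All neighbours in the control order overlapped.

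Among themselves the members fell into pairs by their pattern over the 6 libraries, measured as the root mean square difference of centred log2(CPM + 0.5). The closest pairs were Folr2 with Cd163 (0.169), Cd68 with Csf1r (0.195) and Mrc1 with Csf1r (0.282), with no test. Over all genes tested, those nearest to Csf1r were Atl3, Clip3 and Ptpro (0.0714, 0.072 and 0.0725). Nearest to Ms4a7 were Piezo2, Col16a1 and Ak5 (0.165, 0.179 and 0.182), and nearest to Trem2 were Bcl2a1b, C3ar1 and Ctss (0.19, 0.211 and 0.211). Folr2 lay nearest to Clec3b, Ctla4 and Cbr2 (0.138, 0.166 and 0.167), and Lyve1 to Dtx1, Ctla4 and Clec3b (0.191, 0.248 and 0.293). Nearest to Cd163 were Efemp1, Folr2 and Dtx1 (0.126, 0.169 and 0.176), and nearest to Mrc1 were Pltp, Gm6402 and Arid3a (0.0442, 0.0635 and 0.0663). Timd4 had Pkhd1l1, Gpm6a and Smpd3 (0.187, 0.347 and 0.381), Gpnmb had Il7r, Kcnn4 and Adam8 (0.227, 0.426 and 0.441), and Cd68 had Anxa1, Arl11 and Skap2 (0.0747, 0.0804 and 0.0807).

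Other genes of these cells were described from lists. Over all lists, those of other cells included, 209 genes were tested, of which 8 rose and 0 fell by edgeR. The shares of all genes to set beside the counts of each list are 2.61% higher and 1.09% lower by edgeR. They are 12.3% and 13.5% at an unadjusted p under 0.05, 7.18% and 8.33% by DESeq2, and 3.66% and 2.32% by limma. Of 17 further resident macrophage genes tested, 0 rose and 0 fell by edgeR, with 0 higher and 2 lower at an unadjusted p under 0.05 (0 and 2 by DESeq2, 0 and 0 by limma), and the median log2 fold change was -0.22. In the edgeR fit without control 3, 3 genes of this list rose and 0 fell, against 11.6% and 12.9% of all genes. Vsig4, a complement receptor of resident macrophages, was at 3.97, 2.69 and 1.57 CPM in KO 1, 2 and 3, against 3.04, 2.41 and 24.8 CPM in control 1, 2 and 3 (log2 fold change -1.88, edgeR adjusted p = 0.255). Fcna, a ficolin of macrophages, and Cd5l, a secreted macrophage protein, were likewise highest in control 3, at 57.5 and 32.3 CPM, against 11.1 and 6.47 CPM or less in every library labelled KO. Relative to Csf1r, 5 of the 17 were lower in every library labelled KO than in any control and 0 higher. Over all genes tested those shares were 14.2% and 2.03%, with a median log2 difference of -0.63.

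Of 22 genes of monocytes and recruited macrophages, 2 rose and 0 fell by edgeR (7 and 0 at an unadjusted p under 0.05, 6 and 0 by DESeq2, 4 and 0 by limma), with a median log2 fold change of 0.91. Cx3cr1, the fractalkine receptor of monocytes and macrophages, rose to 49.7, 69.7 and 72.2 CPM in KO 1, 2 and 3, against 17.6, 19.4 and 20.6 CPM in control 1, 2 and 3 (log2 fold change 1.73, SE 0.17, edgeR adjusted p = 0.0114). Its controls were close together, unlike those of the members, and it was 1.88 without KO 1 (adjusted p = 0.0219). Thbs1, a matricellular protein that fibroblasts and platelets also make, rose to 726.9 ± 240 CPM in the libraries labelled KO, against 123.9 ± 7.63 CPM in control (SD, n = 3 each, edgeR adjusted p = 0.0129). The monocyte receptor Ccr2 was at 67.7, 144.5 and 94.4 CPM in KO 1, 2 and 3, against 22.9, 33.4 and 85.2 CPM in control 1, 2 and 3 (edgeR, adjusted p = 0.225). The monocyte marker Ly6c2 was at 2.04 to 9.49 CPM in the libraries labelled KO and 2.6 to 22.5 CPM in control (adjusted p = 0.595, edgeR). Chil3, a chitinase-like protein that alveolar macrophages also make, was at 10.3, 542.4 and 37.4 CPM in KO 1, 2 and 3 and at most 13.1 CPM in control, and its highest library was the one with lung transcripts. Il1b, the cytokine interleukin 1 beta, was at 8.36, 31.1 and 2.96 CPM in KO 1, 2 and 3 and 1.23, 1.78 and 8.15 CPM in control 1, 2 and 3. Set against Csf1r, 4 of the 22 were higher in every library labelled KO and 1 lower (2.03% and 14.2% of all genes).

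Of 19 genes linked to lipid-laden macrophages, 0 rose and 0 fell by edgeR (7 higher and 3 lower at an unadjusted p under 0.05, 5 and 3 by DESeq2, 0 and 1 by limma), with a median log2 fold change of 0.46. Spp1, which encodes osteopontin, was at 337, 288 and 44.3 CPM in KO 1, 2 and 3, against 9.57, 36.3 and 83 CPM in control 1, 2 and 3. Lgals3, the lectin galectin 3, was higher in every library labelled KO, at 62.4 to 107.9 CPM, against 6.92 to 47.8 CPM in control (edgeR, adjusted p = 0.153). The macrophage elastase Mmp12 was at 94.8, 117.6 and 9.24 CPM in KO 1, 2 and 3, against 0.932, 10.1 and 64.5 CPM in control 1, 2 and 3. Spp1 and Mmp12 shared with Gpnmb a low KO 3 and a high control 3. In CPM, 7 were higher in every library labelled KO and 3 lower (16.4% and 14.5% of all genes). The 3 lower genes were Lpl, Cd36 and Mitf (log2 fold changes -0.89, -0.90 and -0.81, edgeR adjusted p = 0.108, 0.125 and 0.0633). Relative to Csf1r, 1 was higher in every library labelled KO and 4 lower (2.03% and 14.2% of all genes). Several genes of this list, such as Lpl and Cd36, are also made by cardiomyocytes.

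The TREM2 pathway list held 20 tested genes, of which 1 rose and 0 fell by edgeR (4 and 1 at an unadjusted p under 0.05, 3 and 0 by DESeq2, 1 and 0 by limma; median log2 fold change 0.62). The riser was Clu, a secreted chaperone that binds TREM2 and is made by many cells, at 2772 ± 907.9 CPM in the libraries labelled KO and 736 ± 80.2 CPM in control (SD, n = 3 each, edgeR adjusted p = 0.0278). Tyrobp, the adaptor of TREM2, was at 52.2, 72.8 and 44.7 CPM in KO 1, 2 and 3, against 15.5, 25.1 and 48.9 CPM in control 1, 2 and 3 (log2 fold change 0.92, edgeR adjusted p = 0.215). Ms4a6d, an MS4A relative of Ms4a7, was at 32.1, 36.5 and 20.7 CPM in KO 1, 2 and 3, against 4.46, 15.4 and 25.4 CPM in control 1, 2 and 3. Both overlapped between genotypes, unlike Trem2 and Ms4a7 themselves. By ratio to Csf1r, 2 of the 20 were higher in every library labelled KO and 1 lower (2.03% and 14.2% of all genes).

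The CSF1R pathway and lineage list had 20 tested genes, of which 1 rose and 0 fell by edgeR (3 and 0 at an unadjusted p under 0.05, 3 and 0 by DESeq2, 2 and 0 by limma; median log2 fold change 0.50). It was Tyro3, a receptor kinase of the family that binds dying cells through bridging proteins, at 18 ± 0.572 CPM in the libraries labelled KO and 6.96 ± 2.13 CPM in control (SD, n = 3 each, edgeR adjusted p = 0.0407). Its relative Axl was at 224.6 to 346.9 CPM in the libraries labelled KO and 122.4 to 193.2 CPM in control, and the transcription factor Runx1 at 48.5 to 85.5 CPM and 10 to 26.8 CPM (edgeR, adjusted p = 0.0729 and 0.0648). Neither overlapped between genotypes. The ligand gene Csf1 was at 69.4 to 81.4 CPM in the libraries labelled KO and 65.4 to 79 CPM in control. By ratio to Csf1r, 1 of the 20 was higher in every library labelled KO and 2 lower (2.03% and 14.2% of all genes).

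Relatives and partners of the members' proteins gave 2 risers and 0 fallers of 19 tested by edgeR (4 and 0 at an unadjusted p under 0.05, 2 and 0 by DESeq2, 2 and 0 by limma; median log2 fold change 0.27). Mrc2, the collagen-binding relative of Mrc1 that fibroblasts carry, rose to 194 ± 14.8 CPM in the libraries labelled KO, against 67.9 ± 11.4 CPM in control (SD, n = 3 each, log2 fold change 1.51, edgeR adjusted p = 0.0122). Havcr2, which encodes TIM-3, a relative of TIMD4 on myeloid and T cells, rose to 7.15 ± 1.56 CPM in the libraries labelled KO, against 1.89 ± 0.178 CPM in control (SD, n = 3 each, edgeR adjusted p = 0.0243). The protease Adam8 and the hyaluronan synthase Has2 overlapped between genotypes (edgeR, adjusted p = 0.278 and 0.159). Set against Csf1r, 2 of the 19 were higher in every library labelled KO and 0 lower (2.03% and 14.2% of all genes).

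The 22 pan-macrophage genes all had a fitted log2 fold change above 0, with a median of 0.78, but 0 rose and 0 fell by edgeR (8 and 0 at an unadjusted p under 0.05, 5 and 0 by DESeq2, 0 and 0 by limma). Adgre1, which encodes F4/80, was at 174.2, 203.3 and 175.5 CPM in KO 1, 2 and 3, against 50.9, 78.7 and 118.5 CPM in control 1, 2 and 3 (edgeR, adjusted p = 0.0752). The perforin-like gene Mpeg1 was at 209.8, 288.4 and 218.9 CPM in KO 1, 2 and 3, against 24.2, 55.5 and 123 CPM in control 1, 2 and 3 (adjusted p = 0.0976, edgeR). Both were higher in every library labelled KO. The complement gene C1qa was at 204.9 to 285.1 CPM in the libraries labelled KO and 88.3 to 234.4 CPM in control, and the cathepsin Ctss at 212.8 to 402.8 CPM and 46.3 to 234 CPM. The leukocyte genes Itgam and Ptprc were highest in control 3, at 117.6 and 232.8 CPM. Relative to Csf1r, 4 of the 22 were higher in every library labelled KO and 0 lower, against 2.03% and 14.2% of all genes.

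**Figure D4:**
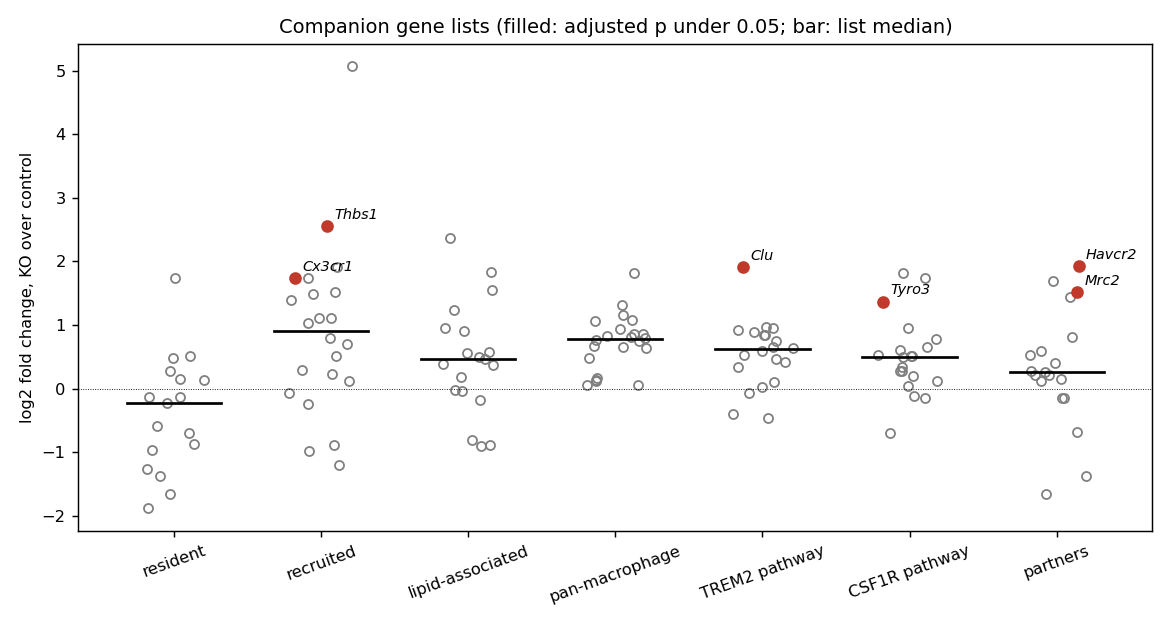
Log2 fold change of KO over control (vertical axis) for each tested gene of 7 companion lists (horizontal axis), with risers at an adjusted p under 0.05 filled and labelled and list medians as bars. The resident list has its median below 0 at -0.22 and the recruited list has the highest at 0.91.

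Each of these calls depended on some libraries, and all were kept without control 3. In that fit 8 genes of the recruited list, 7 of the lipid list, 15 of the TREM2 list and 8 of the CSF1R list rose. Of the partner list 2 rose, and of the pan-macrophage list 17. The lipid list had 2 fallers there and the others of these lists 0. Over all genes, 11.6% rose and 12.9% fell in that fit. Thbs1 was lost without control 1 or control 2, Cx3cr1 without KO 3, control 1 or control 2, and Mrc2 without KO 2, KO 3 or control 2. Clu was kept without KO 1 and lost without KO 2, KO 3, control 1 or control 2, and Tyro3 and Havcr2 were lost in each of the 5 fits other than that without control 3. Without KO 1 the adjusted p of edgeR's test was 0.0464 for Thbs1, 0.0411 for Mrc2, 0.0351 for Clu, 0.123 for Tyro3 and 0.0822 for Havcr2.

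Transcripts of other cells moved with some of these values. B and plasma cell markers (7 of 8 listed genes tested) summed to 17.3, 197.7 and 19.9 CPM in KO 1, 2 and 3, against 11.7, 10.7 and 814.8 CPM in control 1, 2 and 3. The B cell genes Ms4a1 and Cd79a were at 87.5 and 27.9 CPM in control 3, with Cd79a at 0 in control 2. The adipocyte genes Adipoq and Plin1 were at 130.6 and 53.5 CPM in control 3 and at most 48.2 and 19.0 CPM elsewhere, with Plin1 at 0 in KO 3. The mesothelial and serous-cavity list summed to 99.5 to 141 CPM in the libraries labelled KO and to 127.1, 123 and 252.5 CPM in control 1, 2 and 3, with the mesothelial gene Upk3b at 54.8 CPM in control 3. Timd4, Vsig4, Fcna and Cd5l were highest in the same library, and the part of these cells in their levels was not tested. Without control 3, the log2 differences of Folr2, Cd163 and Lyve1 relative to Csf1r were the -1.73, -1.62 and -1.94 given above.

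Neutrophil markers summed to 4.27 to 60 CPM in the libraries labelled KO and 2.35 to 98.7 CPM in control, and T and NK cell markers to 4.46 to 12.5 CPM and 2.8 to 18.9 CPM. Dendritic cell markers summed to 18.9 to 27.7 CPM in the libraries labelled KO and 14.0 to 24.5 CPM in control, and mast cell markers to 3.94 to 15.8 CPM and 5.78 to 20.3 CPM. These lists overlapped between the genotypes. Fibroblast markers, of which Postn (periostin) rose by edgeR (adjusted p = 0.0338, kept only without control 2 or control 3 among the fits that left out a library, and 0.0995 without KO 1), summed to 11680 to 13910 CPM in the libraries labelled KO and 2629 to 6068 CPM in control, and cardiomyocyte markers to 19850 to 34010 CPM and 38420 to 64410 CPM. Neither overlapped, and the part of these shifts in the macrophage values was not tested. Most of the fibroblast sum in the libraries labelled KO was Col1a1 and Postn (means 4927 and 5163 CPM). Of the 6 listed fibroblast genes, 4 were higher in every library labelled KO (16.4% of all genes). Pdgfra and Dcn overlapped (log2 fold changes 0.25 and 0.12, edgeR adjusted p = 0.633 and 0.761). Blood endothelial markers overlapped, at 1008 to 1320 CPM in the libraries labelled KO and 1012 to 1318 CPM in control.

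**Figure D5:**
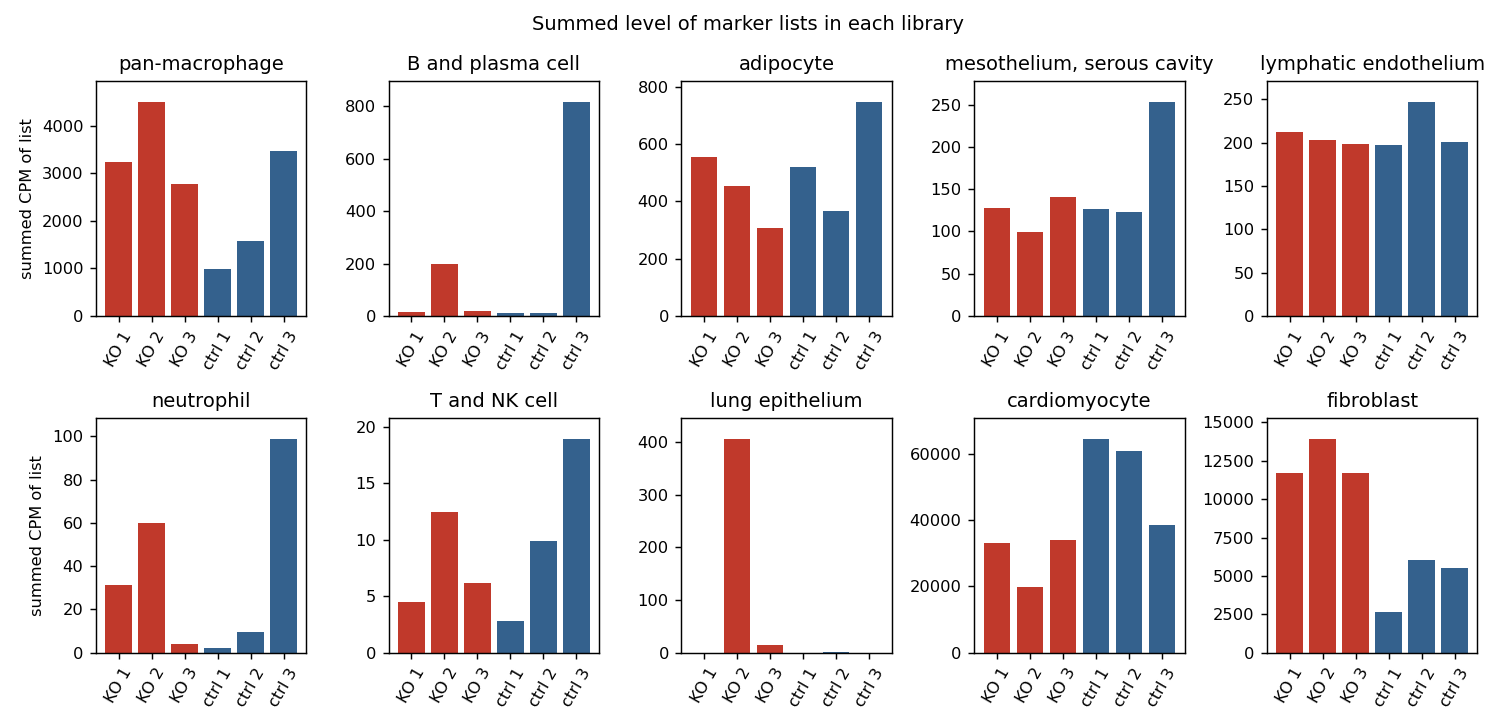
Summed CPM of 10 marker lists (vertical axis, linear from 0, own scale per list) in each library labelled KO (red) and each control library (blue). Control 3 has the highest B and plasma cell, adipocyte and mesothelial sums, and KO 2 has the highest pan-macrophage and lung sums.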

How the data were processed

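Stranded total RNA libraries were made from remote left ventricle, per the labels' protocols. The submitters' processing notes name mm10, HISAT2 and Bowtie2 with no role. No source used here names the counter or says whether it used strand. The authors deposited whole-number read counts and FPKM for 36780 RefSeq transcripts, per the file headers.

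Counts were summed per gene symbol, filtered with filterByExpr and tested with edgeR 4.0.16 (quasi-likelihood, TMM, Benjamini-Hochberg over 14466 genes) in R 4.3.3. Alternatives used DESeq2 1.42.0, limma 3.58.1 on log2(FPKM + 1), other scalings and filters, a block, and each library left out. The test was also run on simulated data. CPM are scaled by TMM, and ratios used a pseudocount of 0.5 CPM. A count of 0 allows up to 3 reads, counting error only. Columns beginning with C were taken as control, after its initial. Libraries of a genotype differed beyond counting error (median chi-square per degree of freedom 3.78 to 17.3), but nothing says that they are separate animals, so p-values measure only the spread between libraries, which may be technical.

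The members and lists were chosen with earlier results of these data known. Named were the members, the 3 largest folds per list at a mean of at least 5 CPM, genes that passed, and fixed markers. Myh6, Csf1, Lpl, Cd36, Mitf, Pdgfra, Dcn and Reln were added after their values were seen.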

Additional observations from a re-analysis of the deposited data

How the results depend on the processing

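Over the fits that left out each library in turn, members that rose numbered 0 to 5 and members that fell 0 to 2, all genes that rose 3 to 1719 and that fell 0 to 1909, and companion genes that rose 1 to 67 and that fell 0 to 7, the highest of each being without control 3. The fit of all 6 libraries tested 209 companion genes. Without control 3, 11.6% of all genes rose and 12.9% fell. DESeq2 called 3 members lower, and 1072 genes higher and 1244 lower in all. Limma on log2(FPKM + 1) called 335 genes lower. With the most-read transcript of each gene, 0 members, 137 genes and 35 genes were called (members higher, all higher, all lower). With library totals alone 1 companion gene fell. Deviations from the group mean correlated at 0.29, -0.30 and -0.34 between KO and control libraries numbered 1, 2 and 3. With 3 libraries per genotype, these values cannot show whether the numbers pair the samples. The replicate block left 0 members and 0 companion genes that rose, and 6 genes higher and 0 lower over all genes (Ms4a7 log2 fold change 2.24, edgeR adjusted p = 0.088). Scaled to Csf1r, 3 members fell. The log2 fold change of Mrc1 changed sign, to 0.051 with library totals, 0.0066 with no filter, 0.21 with limma, 0.00033 with the most-read transcript, 0.13 with the block and a range of -0.26 to 0.56 with a library left out. The Cd68 ratio became -0.087 with the pan-macrophage list as denominator. The other 8 ratios kept their direction in every alternative run, and the causes of these changes were not tested. Timd4 had 21 to 241 reads, and control 3 differed from the other controls beyond counting error (exact 95% Poisson intervals 211.5 to 273.4 reads in control 3 and at most 62.5 in control 1 and 2).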
